A study of Mus musculus with 10 samples.

Results

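Transcripts of 7 genes of the Hedgehog pathway were followed in mouse heart: the receptor gene Ptch1, the transducer gene Smo, the ligand-binding inhibitor gene Hhip, the GLI inhibitor gene Sufu and the transcription factor genes Gli1, Gli2 and Gli3. They are 7 of the 54532 genes in the deposited count table. The genes were chosen by name, with the LPS against saline values of these same libraries already known. Their levels and fold changes are therefore a description with no test of its own, and calls from the fit over all genes are given only for orientation.

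The hearts came from C57BL/6 mice of 8 weeks of age, with no transgene or deletion named in the labels. A group of 5 mice had been injected with saline. The other 5 mice are labelled as 24 h after stress with lipopolysaccharide (LPS), the outer-membrane component of Gram-negative bacteria used to model sepsis. The sources used here give no dose, route or sex. RNA came from heart tissue and not from sorted cells, so fewer cells of a type and less RNA per cell cannot be told apart. In 2 further deposited tables the LPS columns are named for 3 h, and the files do not tell which time is right.

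Hedgehog signalling is read out at the primary cilium. Without ligand, PTCH1 keeps SMO inactive, protein kinase A and its partners mark GLI proteins, and GLI3 in particular is cut to a repressor. When Sonic, Indian or Desert hedgehog binds PTCH1 and a co-receptor, SMO enters the cilium and full-length GLI2 acts as the main activator. GLI1, PTCH1 and HHIP are themselves encoded by target genes, of which PTCH1 and HHIP feed back to restrain the pathway. In adult mouse heart, Gli1 is known as a marker of perivascular mesenchymal cells.

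Total counts were between 15586690 and 16786516 reads in saline libraries and between 14607969 and 17012372 in LPS libraries. Cardiomyocyte markers were abundant throughout, with a summed level of 43266 to 51792 CPM in saline and 47310 to 50295 CPM in LPS hearts. Saline replicate 5 stood apart. In a principal component analysis over 1000 genes of highest variance it lay at -0.563 on the leading axis, with saline replicates 1 to 4 between -67.0 and -55.1 and LPS libraries between 43.7 and 55.0. Results are given with and without it where it matters. CPM are counts divided by the effective library size, its total times the TMM factor, and brought to a common scale. The p-values set the difference between groups against the spread between libraries, and the labels say no more of the mice than a number for each.

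Promoter sequences of 6 of the 7 genes were matched in RefSeq (GRCm38.p6), from 250 bases before to 50 after the transcript start. Those of Gli2, Smo and Gli3 are shown because these genes had the largest differences in each direction. They lie at chr1:119053570-119053869 (minus strand), chr6:29735247-29735546 (plus strand) and chr13:15463473-15463772 (plus strand). Capitals mark CCACCC on either strand, the core of the GLI consensus GACCACCCA.
Gli2: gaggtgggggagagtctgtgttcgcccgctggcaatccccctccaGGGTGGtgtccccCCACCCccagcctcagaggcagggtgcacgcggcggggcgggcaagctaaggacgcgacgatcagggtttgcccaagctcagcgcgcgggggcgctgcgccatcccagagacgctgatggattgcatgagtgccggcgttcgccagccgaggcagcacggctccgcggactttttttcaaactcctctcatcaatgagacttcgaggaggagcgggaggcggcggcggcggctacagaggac
Smo: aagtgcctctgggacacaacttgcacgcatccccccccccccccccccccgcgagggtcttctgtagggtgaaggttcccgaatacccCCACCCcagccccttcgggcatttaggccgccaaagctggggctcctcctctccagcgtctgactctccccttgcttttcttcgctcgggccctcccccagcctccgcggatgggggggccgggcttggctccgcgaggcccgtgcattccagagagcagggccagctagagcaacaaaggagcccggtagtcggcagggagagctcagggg
Gli3: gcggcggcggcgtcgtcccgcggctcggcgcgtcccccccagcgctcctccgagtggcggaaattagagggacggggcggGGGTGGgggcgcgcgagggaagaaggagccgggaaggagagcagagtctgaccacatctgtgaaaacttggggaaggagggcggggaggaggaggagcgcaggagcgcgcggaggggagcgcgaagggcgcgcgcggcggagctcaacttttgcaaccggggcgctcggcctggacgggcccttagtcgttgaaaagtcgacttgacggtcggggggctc

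None of the 6 windows held the full consensus, which 0.253% of the 32851 promoter windows of this length hold on either strand. The core, which lies inside the consensus, was found at 2 places in the Gli2 window and at 1 place each in those of Smo, Gli3 and Hhip. It was not found in those of Ptch1 and Sufu, and 31.5% of all windows hold it. The GC content of the 6 windows was between 56.3% for Sufu and 76.3% for Ptch1, where the median of all windows was 52.7%. A match of letters is a description of the window and not a binding site. The RefSeq start of Ptch1 used here lies 7863 bases from the gene's 5′ end in the count table, and that of Gli3 488 bases from it.

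Within the 7 genes, Gli2, Smo, Ptch1 and Sufu were lower after LPS, Gli3 was higher, Gli1 had similar means, and Hhip had no reads. In the fit over all genes 4 were called lower, where 21.0% of the 13864 tested genes were, and 1 was called higher, where 18.9% were. In either direction 5 members were called, where 39.9% of tested genes were. CPM did not overlap between the groups downward for Gli2, Smo and Ptch1 and upward for Gli3. This held for 14.1% of tested genes downward and 14.3% upward. Since the members were chosen with this contrast known, nothing is read from these counts. Of the 7 genes 6 passed the filter on low counts. Gli2 passed it through the saline libraries alone, since 0 of the 5 LPS libraries reached its cutoff of 0.635 CPM. Without saline replicate 5 the counts were again 4 lower and 1 higher, with 22.9% of all tested genes lower and 21.0% higher.

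Ptch1 (ENSMUSG00000021466, GRCm38 chromosome 13, 63508328 to 63573598, minus strand) encodes the receptor that holds SMO in check. Its level in saline replicates 1 to 5 was 18.7, 19.9, 16.9, 16.6 and 11.5 CPM. In LPS replicates 1 to 5 it was 11.3, 8.86, 7.85, 9.0 and 11.2 CPM. The groups did not overlap, but saline replicate 5 lay just above LPS replicates 1 and 5. Saline hearts averaged 16.7 ± 3.19 CPM and LPS-treated ones 9.64 ± 1.54 (SD, n = 5 each), and the log2 fold change was -0.79 ± 0.16 (SE). Without saline replicate 5 it was -0.90.

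Smo (ENSMUSG00000001761, chromosome 6, 29735503 to 29761365, plus strand) encodes the receptor-like transducer that PTCH1 inhibits. Saline replicates 1 to 5 were at 17, 15.6, 14.0, 14.9 and 11 CPM. LPS replicates 1 to 5 were at 7.81, 4.43, 6.87, 5.23 and 4.07 CPM. Every LPS library lay below every saline library, and saline replicate 5 was again the lowest of its group. Means of 14.5 ± 2.27 and 5.68 ± 1.6 CPM (SD, n = 5 each) gave a log2 fold change of -1.35 ± 0.19 (SE), and -1.43 without saline replicate 5.

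The difference was larger for Smo than for its inhibitor gene Ptch1 in these values. Within each library, the ratio of Ptch1 to Smo in the authors' FPKM, which no scaling of libraries changes, was 0.416 to 0.503 in saline and 0.453 to 1.09 in LPS hearts. LPS replicate 3, at 0.453, lay inside the saline range and the other 4 LPS libraries lay above it.

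Sufu (ENSMUSG00000025231, chromosome 19, 46396896 to 46488804, plus strand) encodes the protein that binds GLI factors in the cytoplasm and restrains them. It was at 13.6, 10.8, 10.1, 9.48 and 9.49 CPM in saline replicates 1 to 5 and at 7.94, 8.31, 6.93, 6.62 and 9.59 CPM in LPS replicates 1 to 5. The groups overlapped, since LPS replicate 5 lay above saline replicates 4 and 5. The log2 fold change was -0.44 ± 0.15 (SE), from 10.7 ± 1.71 to 7.88 ± 1.2 CPM (SD, n = 5 each). It was not called when saline replicate 1 or 2 or LPS replicate 2, 3 or 4 was left out, where the log2 fold change was between -0.44 and -0.32.

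Hhip (ENSMUSG00000064325, chromosome 8, 79965851 to 80058006, minus strand) encodes a membrane protein that binds hedgehog ligands and is a classical target gene. It had 0 reads in all 10 libraries. A count of 0 allows up to 3 reads over a group, or 0.0336 CPM for the saline group and 0.0431 CPM for the LPS group, by counting error alone. No fold change can be given.

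**Figure D1:**
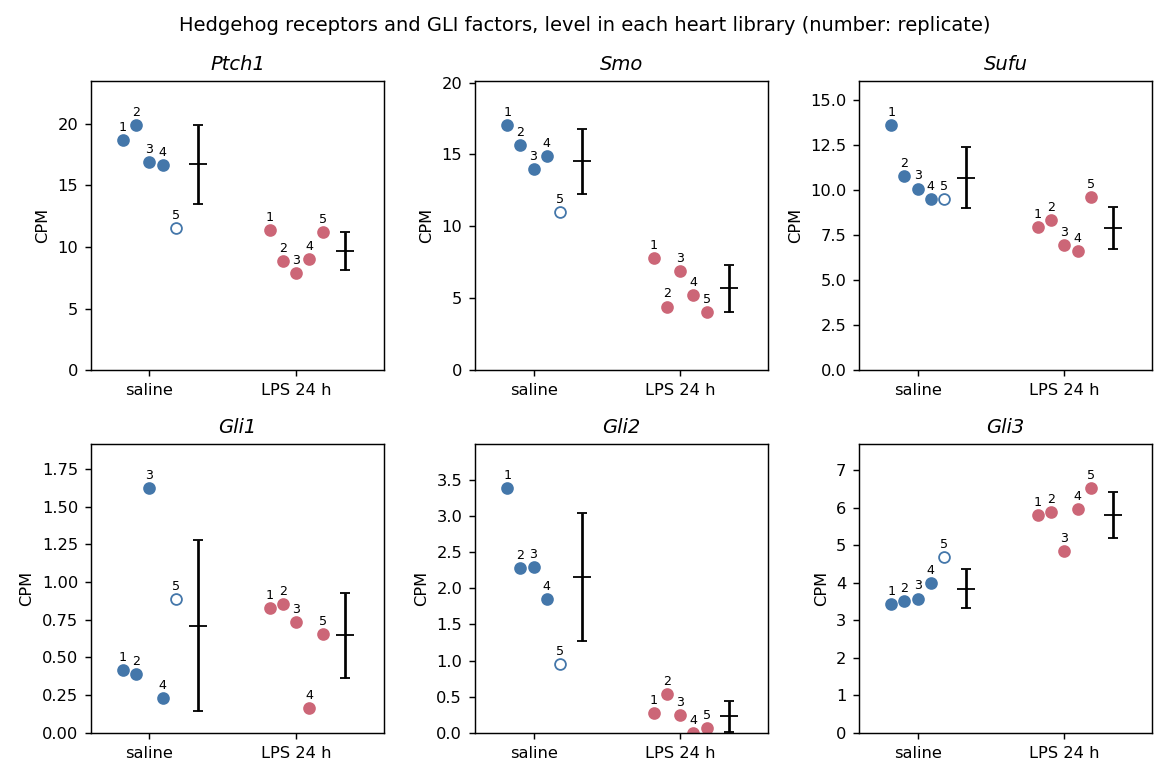
Level in CPM (y axis from 0) of 6 genes in the 5 saline and 5 LPS libraries. Each point is a library with its replicate number, the open point is saline replicate 5, and the black mark is the mean ± SD. Smo, Ptch1 and Gli2 do not overlap between the groups and are lower after LPS, Gli3 does not overlap and is higher, and Sufu and Gli1 overlap. Of all tested genes 14.1% do not overlap and are lower, and 14.3% do not overlap and are higher.

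Among the transcription factors, Gli2 (ENSMUSG00000048402, chromosome 1, 118834132 to 119053619, minus strand) had the largest difference. It had 65, 41, 41, 32 and 16 reads in saline replicates 1 to 5, or 3.39, 2.28, 2.30, 1.85 and 0.949 CPM. In LPS replicates 1 to 5 it had 4, 7, 4, 0 and 1 reads, or 0.276, 0.544, 0.245, 0 and 0.0726 CPM. All LPS libraries lay below all saline libraries, and saline replicate 5 was the saline library nearest to them. Over the groups, 195 reads stood against 16, which makes saline 9.52-fold higher with a 95% counting interval of 5.72 to 17 (exact binomial, counting error only). The fitted log2 fold change was -3.19 ± 0.52 (SE), and -3.37 without saline replicate 5.

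Gli3 (ENSMUSG00000021318, chromosome 13, 15463235 to 15730026, plus strand), whose product serves mainly as the pathway's repressor, went the other way. Saline replicates 1 to 5 were at 3.44, 3.51, 3.58, 3.99 and 4.69 CPM, and LPS replicates 1 to 5 at 5.80, 5.90, 4.84, 5.97 and 6.54 CPM. The groups did not overlap, with LPS replicate 3 just above saline replicate 5. Means were 3.84 ± 0.519 and 5.81 ± 0.611 CPM (SD, n = 5 each) and the log2 fold change was 0.60 ± 0.16 (SE), and 0.68 without saline replicate 5. With total count scaling, which moves the median of all tested genes by -0.27 on the log2 scale, that of Gli3 was 0.33 and was not called. A transcript count does not measure how much GLI3 protein is cut to repressor.

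Gli1 (ENSMUSG00000025407, chromosome 10, 127329882 to 127341974, minus strand), a target gene often used to read out the pathway, was near the limit of detection. It had 8, 7, 29, 4 and 15 reads in saline and 12, 11, 12, 2 and 9 reads in LPS replicates 1 to 5. Saline replicate 3 was the highest library at 1.62 CPM and LPS replicate 4 the lowest at 0.164 CPM. The groups overlapped widely, with means of 0.71 ± 0.567 and 0.647 ± 0.282 CPM (SD, n = 5 each). The log2 fold change was -0.11 ± 0.52 (SE), and 0.44 without saline replicate 3. The ratio of LPS to saline reads had a 95% counting interval of 0.625 to 1.39. That interval covers counting error alone and understates the uncertainty, since the SE of the fit, which includes the spread between libraries, is as given above. Of the exons of Gli1, 62 bases are shared with Arhgap9 on the other strand.

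Set against each other per gene length, the 3 GLI genes stood in different orders in the 2 groups. In saline hearts Gli3 was at 0.422 ± 0.0587 FPKM, Gli2 at 0.33 ± 0.134 FPKM and Gli1 at 0.15 ± 0.12 FPKM (the authors' FPKM, SD, n = 5), and neighbours in this order overlapped. In LPS hearts Gli3 was at 0.652 ± 0.0729, Gli1 at 0.139 ± 0.0607 and Gli2 at 0.0356 ± 0.033 FPKM. Gli3 then lay above both others in every library, and Gli1 and Gli2 overlapped.

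Gli2 made up 52.7%, 42.8%, 32.4%, 36.8% and 17.2% of the summed GLI FPKM in saline replicates 1 to 5 and 4.96%, 9.14%, 5.19%, 0% and 1.28% in LPS replicates 1 to 5. These shares are taken within a library and do not depend on scaling. The share of Gli3 was 36.2% to 60.7% in saline and 71.1% to 95% in LPS hearts, again without overlap. The sum of the 3 genes was 0.902 ± 0.132 FPKM in saline and 0.827 ± 0.103 FPKM in LPS hearts (SD, n = 5 each), values whose ranges overlapped.

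**Figure D2:**
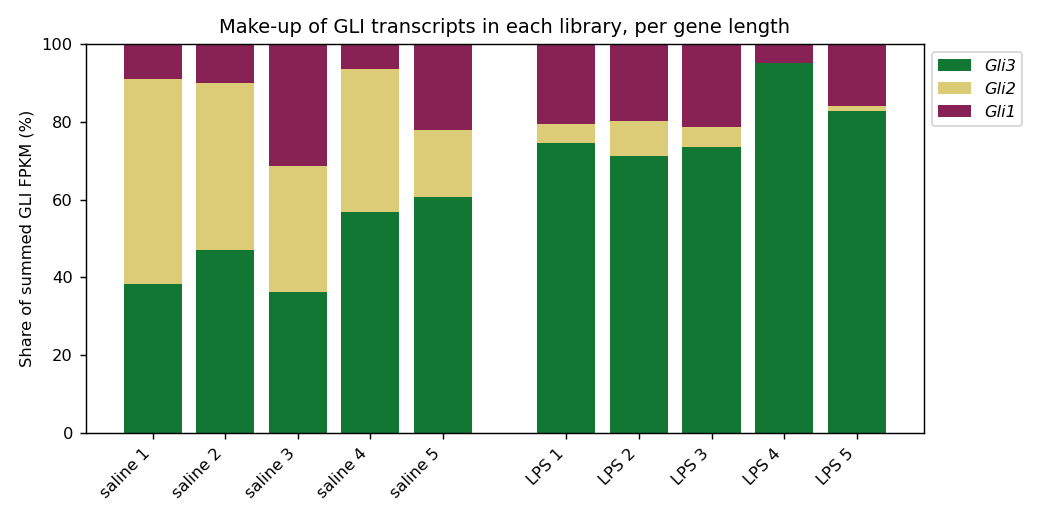
Share of Gli1, Gli2 and Gli3 in their summed FPKM (y axis, %) in each of the 10 libraries (x axis). Each bar is a library and adds to 100%. Gli2 takes between 17.2% and 52.7% in saline libraries and at most 9.14% in LPS libraries, and Gli3 takes the larger part in each LPS library.

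Across the receptor side of the pathway, Smo had the highest level per length in saline hearts at 2.72 ± 0.416 FPKM, before Sufu at 1.62 ± 0.257 and Ptch1 at 1.24 ± 0.233 FPKM (SD, n = 5). Sufu and Ptch1 overlapped. After LPS the order was Sufu at 1.22 ± 0.193, Smo at 1.09 ± 0.304 and Ptch1 at 0.732 ± 0.122 FPKM, with overlap between neighbours. The ratio of Smo to Sufu within a library was 1.43 to 1.94 in saline and 0.524 to 1.22 in LPS hearts.

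The rest of the pathway was described with 72 further genes in 6 lists, of which 71 had a read and 64 were tested. Of the 64, 19 fell and 9 rose, shares of 29.7% and 14.1% beside 21.0% and 18.9% of all tested genes. The test was edgeR's quasi-likelihood test with Benjamini-Hochberg adjustment over all tested genes. Their median log2 fold change was -0.19, and that of all tested genes was -0.02. Without saline replicate 5, 23 fell and 10 rose of 65 tested, beside 22.9% and 21.0% of all tested genes. Upper quartile scaling gave 32 falling and total count scaling 40, where 31.8% and 41.6% of all tested genes fell. The lists were made with earlier results of these libraries known. Below, levels are means ± SD over 5 libraries, and log2 ratios are LPS over saline ± SE.

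Hedgehog ligand transcripts were scarce. Shh had 0 reads in all 10 libraries, and Ihh had 9 reads in saline libraries and 2 after LPS, both in LPS replicate 3. Dhh was the only ligand gene that could be tested, and it averaged 1.09 ± 0.286 CPM in saline hearts and 0.627 ± 0.279 CPM after LPS (log2 ratio -0.77 ± 0.34, edgeR adjusted p = 0.0867). It was called lower with upper quartile or total count scaling and without LPS replicate 3 (edgeR adjusted p = 0.0393, 0.0239 and 0.0238). Dhh passed the filter through the saline libraries, where it was higher, since 1 of the 5 LPS libraries reached the cutoff. Of the exons of Dhh 25.2% are shared with Gm49442 on the other strand and 12.4% with Rhebl1 on the same strand, which had 12 and 150 reads, so reads in these stretches are uncertain.

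Among the 6 tested genes of ligand production, release and carriage, Dhh included, 1 fell and 1 rose. Of all tested genes 21.0% fell and 18.9% rose. The number falling was 2 with upper quartile scaling or without LPS replicate 3, and 3 with total count scaling. In these fits 31.8%, 19.9% and 41.6% of all tested genes fell. Disp1, which frees lipid-anchored hedgehog from producing cells, fell from 10.6 ± 1.21 CPM in saline hearts to 5.25 ± 0.854 CPM after LPS (log2 ratio -1.01 ± 0.15, edgeR adjusted p = 0.000104). The secreted carrier gene Scube3 rose from 0.608 ± 0.257 CPM in saline hearts to 1.71 ± 0.412 CPM after LPS (log2 ratio 1.47 ± 0.32, edgeR adjusted p = 0.00221). In both genes the groups did not overlap, which held for 14.1% of all tested genes downward and 14.3% upward. Scube3 passed the filter on low counts through the LPS libraries, where it was higher, since 2 of the 5 saline libraries reached the cutoff.

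Among co-receptors that present ligand to PTCH1, Gas1 and Cdon were called lower and Boc was not called. Gas1, a membrane-anchored co-receptor, was at 27.9, 32.4, 31.6, 35.1 and 12.7 CPM in saline replicates 1 to 5 and at 4.42, 4.58, 3.74, 3.27 and 6.39 CPM in LPS replicates 1 to 5. Its groups did not overlap, and saline replicate 5 lay between the other saline libraries and the LPS libraries (log2 ratio -2.64 ± 0.28, edgeR adjusted p = 1.85e-05). Of its exons 19.9% are shared with Gm48488 on the other strand, which had 28 reads. Cdon fell from 13.8 ± 2.73 CPM in saline hearts to 5.13 ± 0.954 CPM after LPS (log2 ratio -1.43 ± 0.18, edgeR adjusted p = 2.32e-05). Its close relative Boc did not pass the test, with 6.76 ± 0.889 CPM in saline hearts and 8.52 ± 2.28 CPM after LPS (log2 ratio 0.33 ± 0.18, edgeR adjusted p = 0.162). Whether Cdon and Boc differ in their response was not tested.

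Ciliary transducers that work with SMO fell in 5 of 10 tested members and rose in 0, beside 21.0% and 18.9% of all tested genes. The number falling was 7 with upper quartile or total count scaling, where 31.8% and 41.6% of all tested genes fell. It was 4 without saline replicate 2 or 3. Without saline replicate 5 or LPS replicate 1, 2, 3 or 5, it was 6 of 11 tested. Evc and its partner Evc2 sit at the base of the cilium and relay the SMO signal, and Iqce anchors them there. Evc fell from 7.72 ± 2.07 CPM in saline hearts to 1.8 ± 0.435 CPM after LPS (log2 ratio -2.09 ± 0.23, edgeR adjusted p = 9.84e-06). Iqce fell from 3.93 ± 0.998 CPM in saline hearts to 0.729 ± 0.25 CPM after LPS (log2 ratio -2.40 ± 0.28, edgeR adjusted p = 1.64e-05). Iqce passed the filter through the saline libraries, where it was higher, since 2 of the 5 LPS libraries reached the cutoff. Evc2 fell from 7.92 ± 0.853 CPM in saline hearts to 5.57 ± 0.996 CPM after LPS (log2 ratio -0.50 ± 0.15, edgeR adjusted p = 0.0172), a call that did not hold when saline replicate 2 or 3 or LPS replicate 4 was left out (edgeR adjusted p up to 0.0548). Arrb2, which encodes a beta-arrestin that serves many receptors besides SMO, fell from 9.43 ± 2.15 CPM in saline hearts to 2.05 ± 0.209 CPM after LPS (log2 ratio -2.20 ± 0.19, edgeR adjusted p = 1.24e-06).

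The kinesin gene Kif7, which organises GLI proteins at the ciliary tip, had 112 reads in saline libraries and 26 after LPS and did not pass the filter. Gpr161, a ciliary receptor that keeps the pathway off through cyclic AMP, averaged 3.08 ± 0.632 CPM in saline hearts and 3.76 ± 1.6 CPM after LPS and did not pass the test (log2 ratio 0.28 ± 0.27, edgeR adjusted p = 0.447).

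Of 9 tested genes for kinases and ligases that act on GLI proteins, all with many other substrates, 2 rose and 1 fell. Among all tested genes 18.9% rose and 21.0% fell. Upper quartile scaling gave 1 rising and 4 falling, where 14.4% of all tested genes rose and 31.8% fell. Total count scaling gave 0 rising and 4 falling, where 12.3% of all tested genes rose and 41.6% fell. Without LPS replicate 5, 2 fell, and without saline replicate 3, 1 rose. Csnk1a1, a casein kinase gene, rose from 217 ± 14.4 CPM in saline hearts to 301 ± 30.1 CPM after LPS (log2 ratio 0.47 ± 0.09, edgeR adjusted p = 0.000943). Spop, an adaptor that marks full-length GLI proteins for destruction, rose from 183 ± 11.2 CPM in saline hearts to 223 ± 17.3 CPM after LPS (log2 ratio 0.28 ± 0.09, edgeR adjusted p = 0.0163). With total count scaling neither was called (log2 ratios 0.20 and 0.01), nor was Spop with upper quartile scaling (0.13) or without saline replicate 3 (edgeR adjusted p = 0.0511). Prkacb, a catalytic subunit of protein kinase A, fell from 72.1 ± 2.5 CPM in saline hearts to 58 ± 4.49 CPM after LPS (log2 ratio -0.31 ± 0.08, edgeR adjusted p = 0.00629).

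Genes of cilium assembly fell in 6 of 20 tested members and rose in 1, with a median log2 fold change of -0.19. Leaving out saline replicate 1, 3 or 4 or LPS replicate 4 brought the number falling to 3, leaving out replicate 2 of either group brought it to 2, and the replicate block or leaving out LPS replicate 3 brought it to 4. It was 10 under upper quartile and 14 under total count scaling, where 31.8% and 41.6% of all tested genes fell. The medians of the list were then -0.35 and -0.46. Wdr19 fell from 2.39 ± 0.638 CPM in saline hearts to 1.11 ± 0.337 CPM after LPS (log2 ratio -1.09 ± 0.28, edgeR adjusted p = 0.0065). Ift27 fell from 4.99 ± 0.836 CPM in saline hearts to 3.17 ± 0.844 CPM after LPS (log2 ratio -0.65 ± 0.22, edgeR adjusted p = 0.0273), which did not hold when saline replicate 1, 2 or 3 or LPS replicate 2 was left out (edgeR adjusted p up to 0.0714). Ift122 encodes another subunit of the same transport complex as Wdr19 and rose from 18.5 ± 3.48 CPM in saline hearts to 39.1 ± 11.1 CPM after LPS (log2 ratio 1.08 ± 0.19, edgeR adjusted p = 0.000607).

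**Figure D3:**
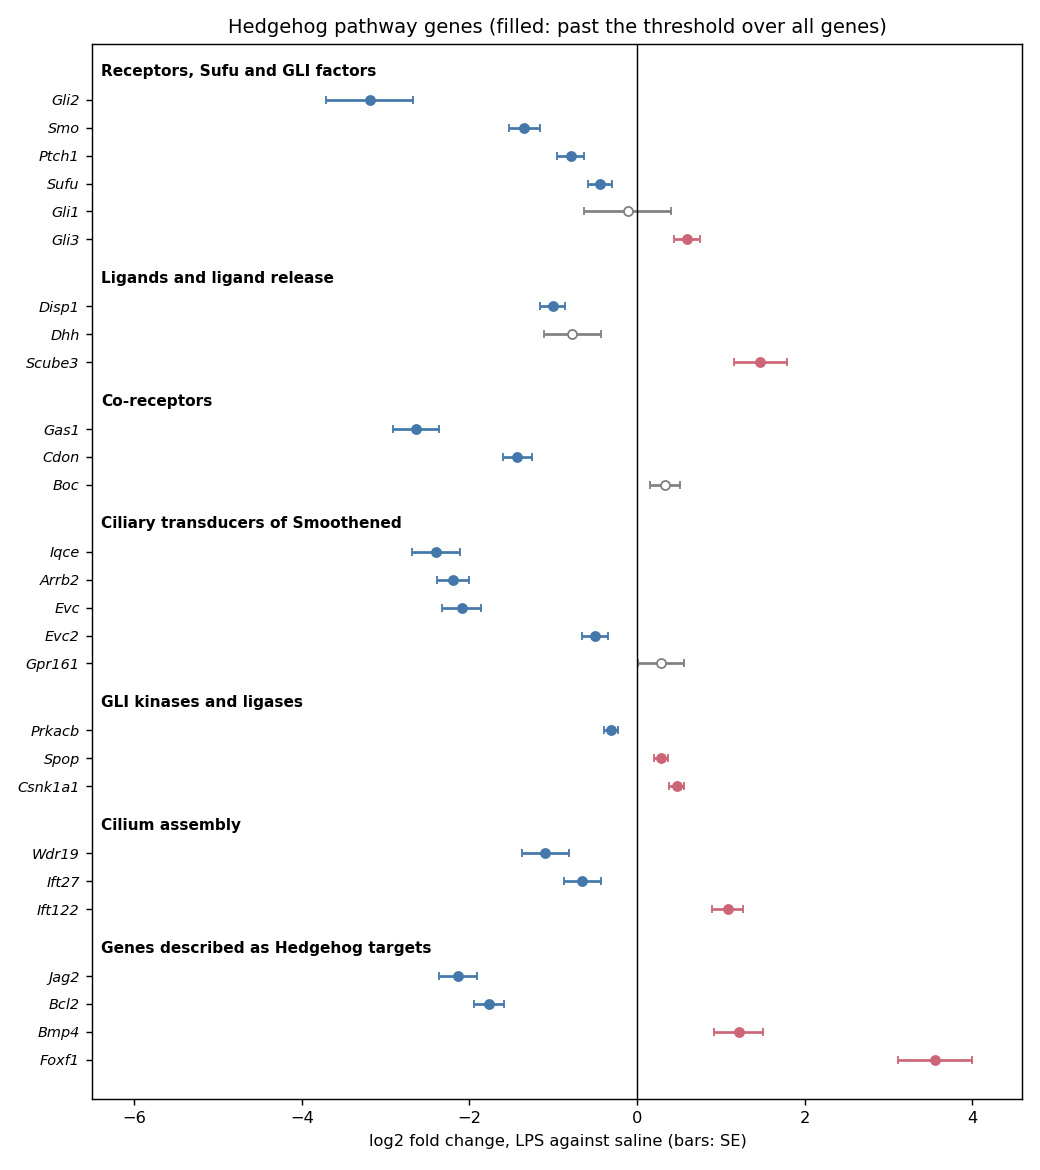
Log2 fold change of LPS against saline (x axis) with its standard error (bars) for the 6 tested receptor, Sufu and GLI genes and the named genes of 6 pathway lists (y axis). Filled points passed the threshold over all genes, blue for lower and red for higher after LPS, and open grey points did not. Gli2, Gas1, Iqce, Arrb2, Jag2 and Evc lie below -2, and Foxf1 lies highest at 3.56.

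Of 14 tested genes described in other tissues as Hedgehog targets 4 rose and 4 fell, with a median log2 fold change of -0.34. The even split was lost with upper quartile scaling (4 rose and 7 fell) and total count scaling (3 rose and 9 fell). Calls over the 13864 tested genes shifted in the same direction. With TMM 18.9% of these genes rose and 21.0% fell. The shares were 14.4% and 31.8% with upper quartile scaling and 12.3% and 41.6% with total count scaling. Jag2, a Notch ligand gene, fell from 40.7 ± 11.6 CPM in saline hearts to 9.25 ± 1.85 CPM after LPS (log2 ratio -2.14 ± 0.23, edgeR adjusted p = 2.32e-05). Bcl2, an inhibitor of cell death, fell from 10.5 ± 2.06 CPM in saline hearts to 3.08 ± 0.428 CPM after LPS (log2 ratio -1.77 ± 0.18, edgeR adjusted p = 4.21e-06). Foxf1, a forkhead factor gene of mesenchyme, rose from 0.48 ± 0.473 CPM in saline hearts to 5.7 ± 1.65 CPM after LPS (log2 ratio 3.56 ± 0.44, edgeR adjusted p = 3.58e-05). Of its 42 saline reads 22 came from saline replicate 5, and without that library the log2 ratio was 4.33. The other saline libraries lay at 0.168 to 0.390 CPM, below the filter's cutoff of 0.635 CPM, so Foxf1 passed the filter mainly through the LPS libraries. Bmp4, a growth factor gene, rose from 6.46 ± 1.25 CPM in saline hearts to 15 ± 6.43 CPM after LPS (log2 ratio 1.21 ± 0.29, edgeR adjusted p = 0.00647). Without saline replicate 5 or without LPS replicate 1, 6 members of the list fell and 4 rose.

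Markers of the cells that could carry these transcripts were read from the same fit, in which 21.0% of all tested genes fell and 18.9% rose. Of 10 fibroblast markers 2 fell and 0 rose, with a median log2 fold change of -0.33 and a summed level of 1533 to 1905 CPM in saline and 1345 to 1804 CPM in LPS libraries. Without LPS replicate 1, 6 fell, without saline replicate 4, 4 fell, and without saline replicate 5, 3 fell. Upper quartile scaling gave 5 falling and total count scaling 7, with a median of -0.60 in the latter. With the replicate block or with no filter, 4 fell. Pdgfra, a receptor gene that marks fibroblasts, fell from 59.8 ± 2.77 CPM in saline hearts to 36.2 ± 9.74 CPM after LPS (log2 ratio -0.73 ± 0.14, edgeR adjusted p = 0.00101), and Tcf21 did not pass the test (log2 ratio -0.42 ± 0.23, edgeR adjusted p = 0.175). Pericyte and smooth muscle markers fell in 3 of 9 tested members, with sums of 1469 to 1712 and 1174 to 1373 CPM, and in 6 of 9 under both of these scalings. Pdgfrb, a pericyte receptor gene, fell (log2 ratio -1.06 ± 0.12, edgeR adjusted p = 1.19e-05) and Cspg4 did not pass the test (log2 ratio -0.23 ± 0.19, edgeR adjusted p = 0.353).

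Endothelial markers fell in 10 of 10, with sums of 1185 to 1893 CPM in saline and 737 to 879 CPM in LPS libraries. The junction genes Pecam1 (log2 ratio -1.13 ± 0.11, edgeR adjusted p = 4.51e-06) and Cdh5 (log2 ratio -0.51 ± 0.15, edgeR adjusted p = 0.0122) were among them. Saline replicate 5, at 1185 CPM, was the lowest saline library there too. With the replicate block 8 of the 10 endothelial markers were called lower. Schwann cell and nerve markers fell in 3 of 5 tested members, with sums of 54.4 to 59.9 and 31.6 to 43.4 CPM. S100b and Kcna1, both falling, passed the filter through the saline libraries alone, since 0 of the 5 LPS libraries reached the cutoff. Total count scaling gave 4 of 5 falling. Without saline replicate 5 or LPS replicate 1, 4 of 7 tested fell and 1 rose. Without saline replicate 1, 2, 3 or 4, 3 of 6 fell and 1 rose. Sox10, a transcription factor gene of Schwann cells, had 142 and 16 reads and was not tested.

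Cardiomyocyte markers were not called in 9 of 10, Myh6 (log2 ratio 0.03 ± 0.09, edgeR adjusted p = 0.818) and Tnnt2 (log2 ratio -0.03 ± 0.11, edgeR adjusted p = 0.848) among them, and 1 rose. That rise was not called with upper quartile or total count scaling, with the replicate block or without saline replicate 2 or 4. Upper quartile scaling called 1 of the 10 lower and total count scaling 4. Macrophage markers fell in 4 of 10 and rose in 1, with sums of 571 to 813 and 458 to 697 CPM. The number falling was 2 without saline replicate 2 or LPS replicate 2 or 4, and 6 without LPS replicate 1 or with upper quartile or total count scaling. Without any 1 library other than saline replicate 5, with DESeq2 or with no filter, 0 rose. Csf1r fell (log2 ratio -1.07 ± 0.10, edgeR adjusted p = 3.37e-06), and Adgre1 did not pass the test (log2 ratio -0.13 ± 0.22, edgeR adjusted p = 0.677). Of 5 tested neutrophil markers 2 rose and 1 fell, with sums of 3.64 to 27.5 CPM in saline, the highest in saline replicate 5, and 15.7 to 44.5 CPM in LPS libraries. Without saline replicate 5, 5 of 6 tested rose, and limma voom and the replicate block gave 4 of 5. None rose without LPS replicate 1, 3 or 5, and 1 rose without LPS replicate 2 or saline replicate 1, 2 or 4. S100a8 was called higher (log2 ratio 2.32 ± 0.74, edgeR adjusted p = 0.0318), a call lost without LPS replicate 1, 3 or 5, and 53 of its 75 saline reads came from saline replicate 5. S100a8 passed the filter through the LPS libraries, where it was higher, since 1 of the 5 saline libraries reached the cutoff. S100a9 did not pass the test (log2 ratio 1.93 ± 0.88, edgeR adjusted p = 0.116). No listed marker was at 0 reads over the 10 libraries. The part that any of these cell types has in the levels of the Hedgehog genes was not tested.

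**Figure D4:**
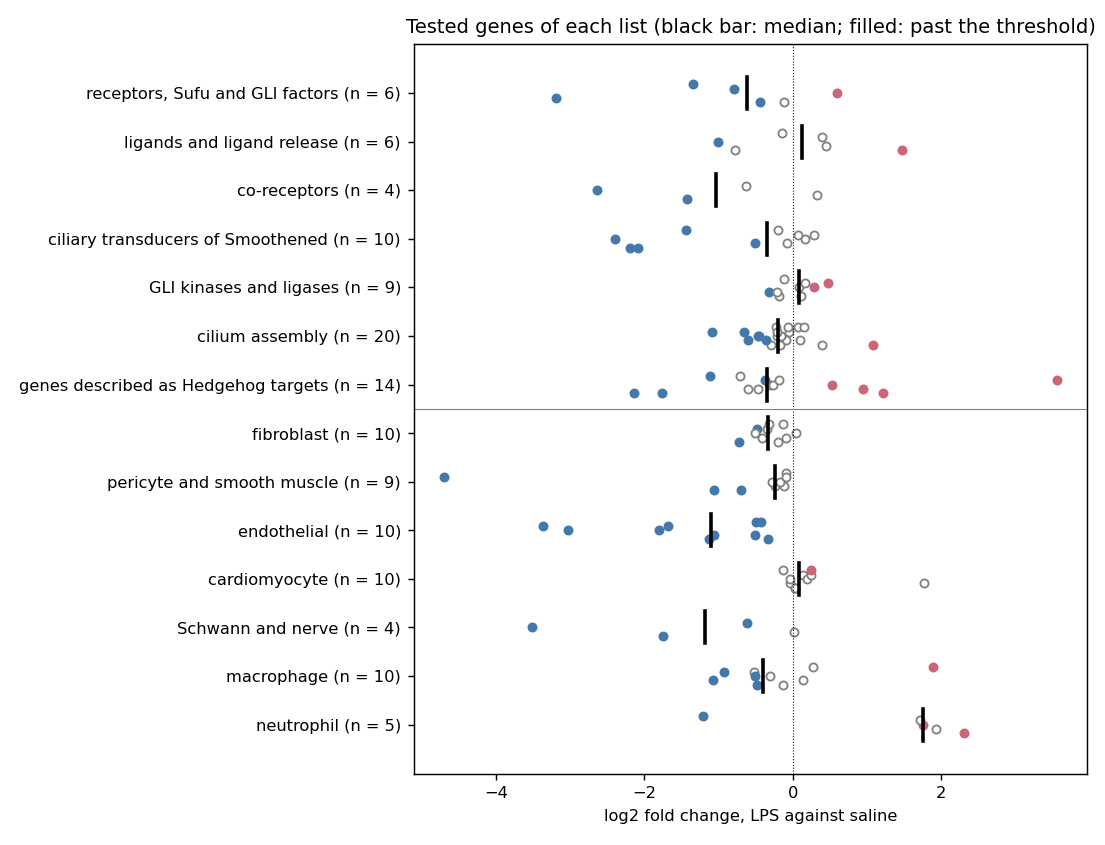
Log2 fold change of LPS against saline (x axis) of tested genes in the Hedgehog lists (upper 7 rows) and the cell type lists (lower 7 rows). Points are genes, filled blue or red when called lower or higher over all genes and open when not called, and black bars are medians of the points shown. The bar for the receptors, Sufu and GLI factors lies at -0.62, that for fibroblast markers at -0.33 and that for endothelial markers at -1.10.

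Genes with the most similar variation within the groups were sought among tested genes averaging 5 CPM or more, by Pearson's r of deviations from the group means of log2 CPM over the 10 libraries. As the highest of 10091 or 10092 candidates, these values are high by selection, and they are a description over libraries of shared depth and scaling. The gene was Rcn3, a calcium-binding protein of the endoplasmic reticulum, for Smo (r = 0.98, and 0.98 without saline replicate 5), and Cdc37l1, a chaperone partner, for Gli3 (r = 0.97 and 0.95). For Ptch1 it was the centrosomal protein gene Cep250 (r = 0.96 and 0.94), and for Gli2 Nde1, which encodes a dynein regulator (r = 0.96 and 0.95). For Gli1 it was Sod3, an extracellular superoxide dismutase (r = 0.92 and 0.95), and for Sufu the cardiac transcription factor gene Tbx20 (r = 0.91 and 0.92).

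Of these, Rcn3, Cep250 and Nde1 also fell after LPS, with log2 fold changes of -0.86 ± 0.13, -2.13 ± 0.24 and -0.58 ± 0.11 (SE), and Cdc37l1 rose by 0.39 ± 0.11. Sod3 and Tbx20 were not called, with 0.07 ± 0.13 and 0.13 ± 0.09. Among pairs of the 6 genes themselves r was between -0.72 for Gli3 with Smo and 0.61 for Ptch1 with Sufu over the 10 libraries.

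The authors' deposited table of Reactome terms holds 6 terms named for Hedgehog or GLI. In the authors' deposited table the term for the Hedgehog on state had 42 differential genes, 26 up and 16 down, with the authors' p-value of 0.0140 and adjusted p-value of 0.114. The authors' deposited table gave adjusted p-values of 0.114 to 0.496 over the 6 terms. It listed Gli3 as up and Gli2, Ptch1, Smo and Sufu as down, from the same libraries. The term for processing of GLI3 by the proteasome had 24 genes up and 3 down in the authors' deposited table, with an adjusted p-value of 0.192.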

How the data were processed

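Hearts were profiled by RNA sequencing from TruSeq libraries, as the labels' protocols say. The authors' deposited table holds read counts per gene and library and, beside them, FPKM columns, which per the file headers belong to the same libraries. Bowtie 0.12.2 and mm9 are named in the submitters' processing notes. The counting tool, annotation and use of strand are unstated in these sources. Of 54532 gene identifiers 54495 were found in GENCODE M21 (GRCm38) and 53585 had the same start and end, all 7 members included, so coordinates are GRCm38. The deposited Reactome table holds the authors' p-values and gene numbers. Other tables, with 20 columns of per-library values, were not used.

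Counts entered edgeR 4.0.16 in R 4.3.3: filterByExpr (minimum count 10, minimum total 15, 13864 genes kept), TMM scaling, a robust quasi-likelihood F-test of LPS against saline without covariates, and Benjamini-Hochberg adjustment with a threshold of 0.05. Standard errors were derived from the F statistic, and the code was tested on simulated data. FPKM served for levels between genes and ratios within a library. Alternatives were 3 other scalings (RLE, upper quartile, total count), no filter, a 1 CPM filter in 5 libraries, DESeq2 1.42.0, limma 3.58.1 with voom, the replicate number as a block, and each library left out. Depth was 14607969 to 17012372 counts per library, and intervals cover counting error only.

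The members and lists were chosen with earlier results of these data known. Named genes are the 7 members, pathway genes fixed by name, the called genes of each pathway list with the largest changes (at most 2 in each direction), the most similar gene of each member, and the first 2 genes of each cell type list. Arhgap9, Gm49442, Rhebl1 and Gm48488 are named for their overlaps, and S100b and Kcna1 for how they passed the filter. Of these, 2 genes are not reported here and not plotted, but they enter the list counts and medians in the text.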

Additional observations from a re-analysis of the deposited data

Results flagged for a closer look

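Values of 60 sets of 5 libraries, the saline and LPS values of each member and named pathway gene with a read, were searched for a library far from the other 4. In 6 sets the gap to the nearest other library took more than 0.71 of the whole range. For independent, normally distributed values this happens in about 1 in 20 sets. The sets here share the same 10 libraries and some hold few reads, so that rate gives no expected number for them.

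Saline replicate 5 stood apart for 3 genes. It was at 9.02 CPM for Cdon, with the other saline libraries at 14.5 to 15.9 CPM, at 20.2 CPM for Jag2, with the others at 44.0 to 49.0 CPM, and at 1.31 CPM for Foxf1, with the others at 0.168 to 0.390 CPM. In each of these it lay on the side of the LPS libraries.

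LPS replicate 3 stood apart for the other 3 genes. It was at 1.10 CPM for Dhh, with the other LPS libraries at 0.363 to 0.573 CPM, at 193 CPM for Spop, with the others at 225 to 236 CPM, and at 0.123 CPM for Ihh, with the others at 0. The Ihh value rests on 2 reads.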

How the results depend on the processing

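Calls depended most on scaling. Upper quartile scaling gave 4407 genes called lower and total count scaling 5764, beside 2916 with TMM, and 1712 were called higher with total count scaling, beside 2617. Of the called genes 47.3% rose with TMM, and with upper quartile or total count scaling 31.1% or 22.9%. These scalings shifted the median log2 fold change by -0.16 and -0.27. Other pathway genes called lower were 32 and 40 under these scalings, beside 19. The shares of all tested genes called lower were 31.8% and 41.6%, beside 21.0%. With total count scaling 0 of the 6 tested members were called higher, beside 1, and 12.3% of all tested genes, beside 18.9%. Gli1 had a log2 fold change of 0.0725 with limma voom, and of 0.44 and 0.14 without saline replicate 3 or LPS replicate 4, beside -0.11, and was called in none of these fits. Its lowest and highest values with 1 library left out were -0.34 and 0.44.

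With 1 library left out, genes called higher were 2277 to 2967 and lower 2355 to 3241. These were 16.3% to 21.0% and 16.8% to 22.9% of tested genes. Members called lower were 3 to 4 and higher 1 throughout. Other pathway genes called lower were 13 to 23 and higher 8 to 10. The 1 CPM filter left 4 members to test, without Gli1 and Gli2. The replicate block gave 2582 genes called higher and 2836 lower, or 18.6% and 20.5%, with 4 members lower and 1 higher. Same-numbered libraries are not paired in the labels, the correlation of their deviations was between -0.0687 and 0.181, and 1 of 5 saline libraries correlated best with the LPS library of its own number. Depth limits Gli1, Gli2, Kif7, Ihh and Shh, which had few or no reads.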
